A study of Homo sapiens with 18 samples.

Results

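The genes described here were 10 transcriptional targets and feedback regulators of RAS and ERK signaling, namely DUSP4, DUSP5, DUSP6, SPRY2, SPRY4, ETV4, ETV5, EGR1, FOSL1 and PHLDA1. They were taken by symbol, with no threshold on a measured value, and all 10 were found among the 39496 genes of the tables. The set was chosen with earlier results of these data known, so it is not independent of them. RNA-seq was carried out in UM-UC-3 and T24, a pair of established human bladder cancer cell lines, of which T24 carries a mutant HRAS gene. The cells of every group were labelled wild type and were transfected with a non-targeting siRNA (siNC) or with siACAT1-1 or siACAT1-2, different siRNAs against ACAT1, an enzyme of mitochondrial ketone body and isoleucine metabolism. Each of the 6 groups had 3 libraries, numbered 1 to 3 and labelled as biological replicates. UM-UC-3 cells were kept in MEM and T24 cells in RPMI-1640, so the cell line and its medium cannot be told apart.

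RAS proteins pass signals from growth factor receptors through RAF and MEK to the kinase ERK, which enters the nucleus and activates transcription factors. Some of the genes switched on in this way encode transcription factors that extend the program, such as EGR1, FOSL1 and the PEA3 group factors ETV4 and ETV5, while others act back on the pathway. DUSP4, DUSP5 and DUSP6 are phosphatases that remove the activating phosphates from ERK, and Sprouty proteins such as SPRY2 and SPRY4 restrain receptor signaling above or at RAS and RAF. The RNA levels of these genes are therefore widely used as a readout of pathway output, although they reflect feedback and other signals as well.

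Library totals ranged from 25163490 to 34417230 counts. ACAT1 was lower in every siACAT1 library than in every siNC library of its line, with means of 3.05 and 2.16 RPKM against 46.0 RPKM in UM-UC-3 cells and 1.29 and 0.792 RPKM against 16.2 RPKM in T24 cells, where RPKM is the read count scaled to exon length and to the library total. The epithelial keratins KRT8, KRT18 and KRT7 were at or above 1 RPKM in every library, whereas 9 of 12 urothelial and epithelial markers in UM-UC-3 cells and 6 of 12 in T24 cells were below 1 RPKM in every library of the line, among them the uroplakins UPK1A, UPK2 and UPK3A. The summed level of these markers ranged from 130 to 210 RPKM in UM-UC-3 and from 301 to 1100 RPKM in T24 libraries. The endothelial list stayed below 1 RPKM gene by gene, as did 4 of 5 fibroblast and 4 of 5 leukocyte genes. The remaining leukocyte gene was CD68, and the leukocyte list summed to 126 to 216 RPKM in UM-UC-3 libraries. The T24 libraries numbered 2 stood apart, with CD68 at 121, 154 and 169 RPKM against 15.7 to 41.5 RPKM in the other T24 libraries, and KRT7 at 140, 81.1 and 102 RPKM against 215 to 371 RPKM. They kept the T24 pattern of line-specific genes, since 15 autosomal genes found only in UM-UC-3 cells (at least 5 RPKM in all their libraries and under 0.05 RPKM in the T24 libraries numbered 1 and 3) reached a median of 0.0427% of their UM-UC-3 level there. The part of the difference between replicate numbers in the results on the knockdown was not tested beyond the fits with and without the number as a block.

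Sequence upstream of the transcription start was at hand for 5 of the 10 genes (EGR1, SPRY2, SPRY4, DUSP6 and PHLDA1) in the RefSeq promoters of GRCh38.p14. In the 250 bases before each start, both strands were searched for the CArG box bound by serum response factor, for CCGGAA, a core sequence bound by ETS factors, for the AP-1 motif TGANTCA and for the cAMP response element TGACGTCA. EGR1, an immediate-early gene driven through serum response factor and its ETS partners, held 2 CArG boxes, which 0.0316% of 34788 promoter windows did, while 1.17% held at least 1. PHLDA1 and the most upstream of 3 windows of SPRY2 each held 1 CCGGAA, found in 14.5% of windows, and the windows of SPRY4 and DUSP6 held none of the 4 motifs. TGANTCA was found in 6.59% of windows and TGACGTCA in 1.64%. The windows of EGR1 (chr5:138465229-138465478, plus strand) and SPRY2 (chr13:80341127-80341376, minus strand) are shown because EGR1 varied most between libraries and SPRY2 least depended on the replicate number in T24 cells. Capitals mark the CArG boxes in EGR1 and CCGGAA in SPRY2, and a match describes letters, not a site in use.
EGR1: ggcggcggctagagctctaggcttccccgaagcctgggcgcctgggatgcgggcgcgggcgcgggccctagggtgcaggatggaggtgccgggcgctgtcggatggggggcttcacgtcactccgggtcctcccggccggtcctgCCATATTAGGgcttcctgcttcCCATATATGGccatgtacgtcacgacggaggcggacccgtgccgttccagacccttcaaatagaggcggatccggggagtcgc
SPRY2: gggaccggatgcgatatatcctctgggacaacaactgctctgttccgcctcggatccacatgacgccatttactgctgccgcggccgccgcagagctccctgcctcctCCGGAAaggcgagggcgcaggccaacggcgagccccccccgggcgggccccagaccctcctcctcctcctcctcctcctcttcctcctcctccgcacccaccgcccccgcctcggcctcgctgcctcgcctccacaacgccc

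FOSL1, which encodes the AP-1 subunit FRA1, had the highest level of the 10 genes in both lines, and the order of the rest differed between the lines. With siNC in UM-UC-3 cells FOSL1 was at 106 ± 48.5 RPKM (SD, n = 3), followed by PHLDA1 at 12.5 ± 1.75 RPKM (SD, n = 3). DUSP5 at 5.03 ± 1.76, SPRY4 at 3.82 ± 0.453, ETV5 at 3.49 ± 1.32, DUSP6 at 2.99 ± 1.23, SPRY2 at 2.66 ± 0.461 and DUSP4 at 2.31 ± 0.184 RPKM formed a run in which the libraries of each gene overlapped those of the next. ETV4 at 1.32 ± 0.280 RPKM and EGR1 at 0.335 ± 0.153 RPKM lay below that run, with no overlap at either step. In T24 cells FOSL1 was at 241 ± 60.0 RPKM and DUSP4 came last at 0.394 ± 0.119 RPKM, and neither overlapped its neighbour. Between them, PHLDA1 (47.6 ± 56.6 RPKM), DUSP6 (10.2 ± 6.94), SPRY4 (8.88 ± 4.77), ETV5 (5.89 ± 1.65), DUSP5 (5.58 ± 6.01), ETV4 (3.90 ± 1.10), SPRY2 (3.87 ± 0.768) and EGR1 (3.20 ± 3.74) each overlapped the next. The SDs of PHLDA1, DUSP5 and EGR1 in T24 exceeded their means because the library numbered 2 was far above the other two. Less RNA per cell and fewer cells that express a gene cannot be told apart in these bulk samples.

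**Figure D1:**
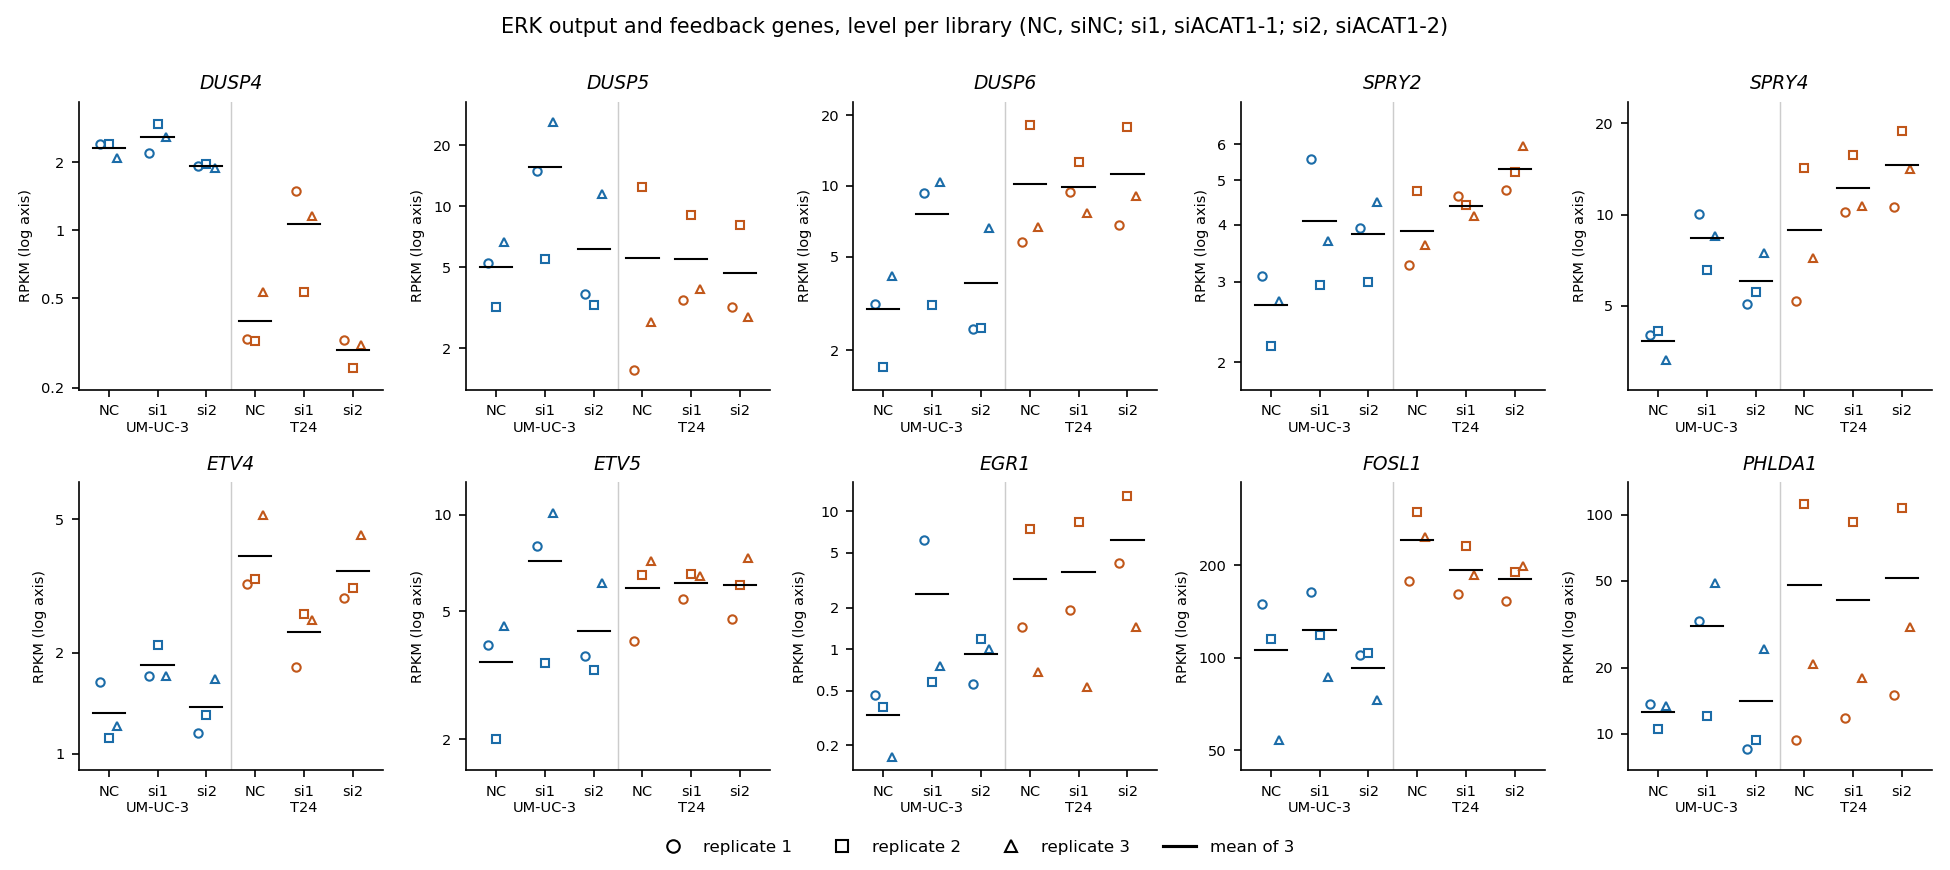
Level of each of the 10 genes in every library, in RPKM on a log axis, for siNC (NC), siACAT1-1 (si1) and siACAT1-2 (si2) in UM-UC-3 (blue) and T24 (orange) cells; the marker shape gives the replicate number and the line the mean of 3 libraries. PHLDA1, EGR1 and DUSP5 in T24 show the library numbered 2 above the other two in every group, and SPRY4 in UM-UC-3 shows all 6 siACAT1 libraries above all 3 siNC libraries.

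Comparing the siNC groups of the lines, DUSP4 was higher in UM-UC-3 and most of the other genes were higher in T24. DUSP4, a nuclear phosphatase of ERK, was at 2.41, 2.42 and 2.10 RPKM in the UM-UC-3 siNC libraries 1, 2 and 3 and at 0.328, 0.323 and 0.531 RPKM in those of T24, with no overlap. Its log2 difference was 2.60 (UM-UC-3 minus T24, standard error 0.32, adjusted p = 6.19e-06 with edgeR's quasi-likelihood test and Benjamini-Hochberg adjustment over all 20144 genes tested). In the same fit 5 genes were lower in UM-UC-3, namely EGR1 (-3.17, standard error 1.14, adjusted p = 0.0320), DUSP6 (-1.71, 0.52, 0.0132), ETV4 (-1.51, 0.25, 1.1e-04), SPRY4 (-1.15, 0.29, 0.0038) and FOSL1 (-1.12, 0.31, 0.0070). In all 6 of 10 genes passed, against 44.3% of all genes tested, of which 22.0% were higher and 22.3% lower. A block on the replicate number within each line takes the spread between numbers out of the error of a difference between lines, so no blocked calls are given for this comparison. PHLDA1 had -1.83 (adjusted p = 0.102 in edgeR's fit), and -0.27 (0.702) without the T24 libraries numbered 2. The calls of DUSP6 and EGR1 rested in part on the T24 libraries numbered 2, without which the differences were -1.07 (adjusted p = 0.0760) and -1.70 (adjusted p = 0.142) in edgeR's fit. With 1 library left out, EGR1 was also lost without any 1 of the 3 UM-UC-3 siNC libraries and DUSP6 without that numbered 2, and both were lost without the T24 siNC library numbered 2, which gave the highest adjusted p (0.2375 and 0.0981 in edgeR's fit).

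Among the phosphatases, DUSP5 and DUSP6 were higher with siACAT1-1 than with siNC in UM-UC-3 cells in every replicate number, while DUSP4 was not. DUSP5, the nuclear phosphatase specific to ERK, was at 5.27, 3.17 and 6.66 RPKM with siNC, at 15.0, 5.50 and 26.1 RPKM with siACAT1-1 and at 3.71, 3.24 and 11.5 RPKM with siACAT1-2 in libraries 1, 2 and 3 of UM-UC-3. The library numbered 3 was the highest and that numbered 2 the lowest in each of the 3 groups, so the groups overlapped although siACAT1-1 exceeded siNC within each number. In T24 cells the same order of libraries gave 1.56, 12.5 and 2.70 RPKM with siNC, 3.46, 9.03 and 3.92 RPKM with siACAT1-1 and 3.17, 8.08 and 2.83 RPKM with siACAT1-2. There the library numbered 2 was the highest in every group, and it was the only number in which both siRNAs gave less DUSP5 than siNC. DUSP6, the cytoplasmic phosphatase of ERK, was at 3.15, 1.70 and 4.14 RPKM with siNC, at 9.32, 3.11 and 10.3 RPKM with siACAT1-1 and at 2.46, 2.49 and 6.60 RPKM with siACAT1-2 in the UM-UC-3 line. In T24 cells DUSP6 ranged from 5.76 to 18.2 RPKM, both ends being siNC libraries, so no siACAT1 library lay outside the siNC range. Exons of DUSP6 share 40.5% of their 4632 bases with an antisense gene on the other strand, and the sources used here do not say whether reads were counted by strand, so reads of the pair cannot be told apart with certainty.

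DUSP4 was higher with siACAT1-1 in T24 rather than in UM-UC-3 libraries. In T24 cells it was at 1.50, 0.530 and 1.16 RPKM with siACAT1-1 against 0.328, 0.323 and 0.531 RPKM with siNC, and at 0.327, 0.245 and 0.308 RPKM with siACAT1-2. The siACAT1-1 libraries numbered 1 and 3 stood above every siNC library, and each siACAT1-1 library exceeded the siNC library of its own number. In UM-UC-3 cells its level ranged only from 1.88 to 2.97 RPKM over 9 libraries, and all 3 siACAT1-2 libraries were below all 3 siNC libraries.

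The Sprouty genes, inhibitors of receptor signaling, were higher with siACAT1 in all but 1 comparison within a number. SPRY4 was at 4.02, 4.14 and 3.30 RPKM with siNC, at 10.01, 6.54 and 8.52 RPKM with siACAT1-1 and at 5.07, 5.56 and 7.45 RPKM with siACAT1-2 in the UM-UC-3 line. All 6 siACAT1 libraries were thus above all 3 siNC libraries. In T24 cells SPRY4 was at 5.20, 14.3 and 7.16 RPKM with siNC, at 10.2, 15.7 and 10.7 RPKM with siACAT1-1 and at 10.6, 18.8 and 14.2 RPKM with siACAT1-2. The siNC library numbered 2 lay among the siACAT1 libraries, but within each number both siRNAs were above siNC. SPRY2 was at 3.09, 2.17 and 2.73 RPKM with siNC, at 5.57, 2.95 and 3.68 RPKM with siACAT1-1 and at 3.93, 3.00 and 4.49 RPKM with siACAT1-2 in the UM-UC-3 line. In T24 cells it was at 3.26, 4.73 and 3.60 RPKM with siNC, at 4.61, 4.42 and 4.17 RPKM with siACAT1-1 and at 4.76, 5.20 and 5.94 RPKM with siACAT1-2, the last group lying wholly above siNC.

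The PEA3 factors ETV4 and ETV5, ETS transcription factors whose own genes are induced by ERK, had unlike orders of libraries. ETV4 was at 1.64, 1.11 and 1.21 RPKM with siNC and at 1.71, 2.11 and 1.70 RPKM with siACAT1-1 in the UM-UC-3 line, the latter all above the former. In T24 cells it was at 3.21, 3.31 and 5.16 RPKM with siNC and at 1.81, 2.61 and 2.501 RPKM with siACAT1-1, here all below siNC. With siACAT1-2 ETV4 overlapped siNC in both lines, at 1.16 to 1.67 RPKM in UM-UC-3 and 2.91 to 4.50 RPKM in T24 cells. ETV5 was at 3.94, 2.00 and 4.51 RPKM with siNC, at 7.98, 3.45 and 10.1 RPKM with siACAT1-1 and at 3.63, 3.28 and 6.14 RPKM with siACAT1-2 in the UM-UC-3 line, again with library 3 the highest and library 2 the lowest of each group. In T24 cells ETV5 spanned only 4.03 to 7.33 RPKM, and the library numbered 1 was the lowest of every group.

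EGR1, a zinc finger factor of the immediate-early response, had the widest range. In UM-UC-3 cells it was at 0.463, 0.377 and 0.165 RPKM with siNC, at 6.16, 0.581 and 0.749 RPKM with siACAT1-1 and at 0.558, 1.18 and 1.01 RPKM with siACAT1-2. All 6 siACAT1 libraries were above siNC, and the siACAT1-1 library numbered 1 was far above the rest, 37.4-fold over the lowest library. That lowest library, at 0.165 RPKM, had little EGR1, so the fold rests on a low level. In T24 cells EGR1 was at 1.44, 7.50 and 0.682 RPKM with siNC, at 1.93, 8.34 and 0.532 RPKM with siACAT1-1 and at 4.19, 13.001 and 1.45 RPKM with siACAT1-2. Number 2 was the highest and number 3 the lowest in all 3 groups. FOSL1 ranged from 53.9 to 164 RPKM in UM-UC-3 and from 152 to 297 RPKM in T24 libraries. Within each number it was higher with siACAT1-1 in the UM-UC-3 line and lower with both siRNAs in T24 cells, although none of these differences from siNC passed at an adjusted p of 0.05 with or without the replicate block.

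PHLDA1, a pleckstrin homology-like protein whose gene is induced by growth factors, had the highest share of its spread between replicate numbers in T24 cells. In T24 cells it was at 9.42, 113 and 20.8 RPKM with siNC, at 11.9, 93.1 and 18.1 RPKM with siACAT1-1 and at 15.1, 108 and 30.8 RPKM with siACAT1-2. The libraries numbered 2 exceeded all others, and the order of the numbers was the same in all 3 groups. In UM-UC-3 cells it was at 13.7, 10.5 and 13.4 RPKM with siNC, at 32.8, 12.03 and 48.7 RPKM with siACAT1-1 and at 8.54, 9.34 and 24.5 RPKM with siACAT1-2. The siACAT1-1 libraries numbered 1 and 3 lay above every siNC library, while number 2 lay within the siNC range. PHLDA1 exons share 16.5% of their bases with RP11-290L1.3 and RP11-290L1.2 on the other strand.

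The question of each knockdown comparison was whether siACAT1 changed the RNA of these genes relative to siNC. Without regard to the replicate number, none of the 10 genes passed an adjusted p of 0.05 in any of the 4 comparisons with edgeR's quasi-likelihood test, where 0.00993%, 0.0546%, 0.124% and 0.268% of all genes passed for siACAT1-1 and siACAT1-2 in UM-UC-3 and T24, respectively. At an unadjusted p under 0.05 in edgeR's fit there were 6, 2, 2 and 2 of the 10 genes in the same order. Over all 20144 genes tested these counts were 1075, 777, 2325 and 1700. With DESeq2 0, 0, 1 and 0 of the 10 passed, against 18, 37, 393 and 251 of all genes. Because libraries of the same number in a line deviated together from their group means, a fit with the number as a block was set beside the unblocked one, and it passed 7, 0, 3 and 1 of the 10 genes against 3.06%, 1.36%, 13.9% and 8.48% of all genes.

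In UM-UC-3 cells with siACAT1-1, the 7 genes that passed with the block were all higher, as were 1.96% of all genes. SPRY4 had a log2 change of 1.11 (standard error 0.17, adjusted p = 0.0014), ETV5 0.99 (0.15, 0.0016), DUSP6 1.28 (0.22, 0.0042), DUSP5 1.44 (0.26, 0.0053), PHLDA1 1.10 (0.24, 0.0175), EGR1 2.4999 (0.54, 0.0185) and SPRY2 0.58 (0.16, 0.0475), in edgeR's blocked fit. Without the block the values were close (1.12, 1.03, 1.33, 1.62, 1.30, 2.86 and 0.60) but the standard errors were larger, for PHLDA1 0.87 in place of 0.24, and edgeR's adjusted p lay between 0.85 and 0.96. ETV4 had 0.48 in both fits (adjusted p = 0.946 without and 0.180 with the block in edgeR). The median over the 10 genes was 1.08 without and 1.05 with the block, beside -0.01 over all genes tested, and the groups did not overlap for 3 genes, SPRY4, ETV4 and EGR1, all higher, as for 6.13% of all genes. The blocked calls depended on which libraries were fitted. Without the 3 UM-UC-3 libraries numbered 3, none of the 7 passed in edgeR's blocked fit, SPRY4 having 0.99 (adjusted p = 0.0699). The log2 changes were then still positive, at 0.90 for ETV5, 1.26 for DUSP6, 1.18 for DUSP5, 0.78 for PHLDA1, 2.66 for EGR1 and 0.65 for SPRY2. A fit with fewer libraries also has less power, so a lost call alone does not show a lost change. With only the siNC library numbered 3 left out 1 gene passed, and with only the siACAT1-1 library numbered 1 left out 2 did. Leaving out only the siNC library numbered 1 or the siACAT1-1 library numbered 3 gave 4 genes each. SPRY4 passed in each of the 18 blocked fits that left out 1 library. EGR1 had 0.96 (adjusted p = 0.329 in edgeR's blocked fit) without the siACAT1-1 library numbered 1.

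With siACAT1-2 in the UM-UC-3 line no gene of the 10 passed with or without the block. SPRY4 had a log2 change of 0.61 (standard error 0.28, edgeR adjusted p = 1.00; with the block 0.60, 0.17, 0.0807), SPRY2 0.47 (0.22, 1.00; with the block 0.48, 0.16, 0.157) and EGR1 1.40 (1.12, 1.00; with the block 1.65, 0.57, 0.180). These 3 of the 10 were at an unadjusted p under 0.05 in edgeR's blocked fit, as were 2706 of all 20144 genes. The groups did not overlap for SPRY4 and EGR1 among the higher genes (6.15% of all genes) or for DUSP4 among the lower (5.86%). The median over the 10 genes was 0.26 without and 0.19 with the block.

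In T24 cells SPRY4 was higher with both siRNAs in the blocked fit, and DUSP4 and ETV4 also passed with siACAT1-1. With siACAT1-1 DUSP4 was higher, at a log2 change of 1.46 (standard error 0.31, adjusted p = 0.0656 in edgeR; with the block 1.39, 0.21, 3.5e-04), and DESeq2 also passed it (1.46, adjusted p = 0.0016). With the block 6.59% of all genes were higher and 7.31% lower, SPRY4 was higher too (0.56, standard error 0.16, edgeR adjusted p = 0.0268, against 0.49 and 0.536 without) and ETV4 was lower (-0.72, 0.18, edgeR adjusted p = 0.0130, against -0.74 and 0.221 without). FOSL1 had -0.30 with the block (standard error 0.14, edgeR adjusted p = 0.158). DUSP4 passed in each of the 18 blocked fits that left out 1 library, with 1.06 to 1.64. Without the siNC library numbered 1 or 3, or the siACAT1-1 library numbered 1 or 3, both SPRY4 and ETV4 were lost. Over the 18 blocked fits SPRY4 ranged from 0.41 to 0.77 (highest edgeR adjusted p = 0.216) and ETV4 from -0.93 to -0.59 (0.122), and SPRY4 without the block ranged from 0.24 (without siNC number 1) to 0.95 (without siNC number 2). With siACAT1-2 SPRY4 alone passed, with the block, as did 4.55% of all genes among the higher (0.81, standard error 0.16, edgeR adjusted p = 0.0042, against 0.74 and 0.435 without), while SPRY2 had 0.48 (0.15, 0.0552), EGR1 1.16 (0.44, 0.112) and FOSL1 -0.38 (0.14, 0.100) in edgeR's blocked fit. SPRY4 then ranged from 0.66 to 1.00 with 1 library left out and was lost without the siNC library numbered 1 or 3 (highest edgeR adjusted p = 0.0636). Without the block its range was 0.49 (without siNC number 1) to 1.18 (without siNC number 2). The medians over the 10 genes were 0.05 and 0.09 for siACAT1-1 and siACAT1-2 without the block and 0.14 and 0.15 with it, beside 0.00 and 0.01 over all genes. The groups did not overlap for ETV4, which was lower with siACAT1-1 (6.9% of all genes), and for SPRY2, which was higher with siACAT1-2 (6.68%).

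**Figure D2:**
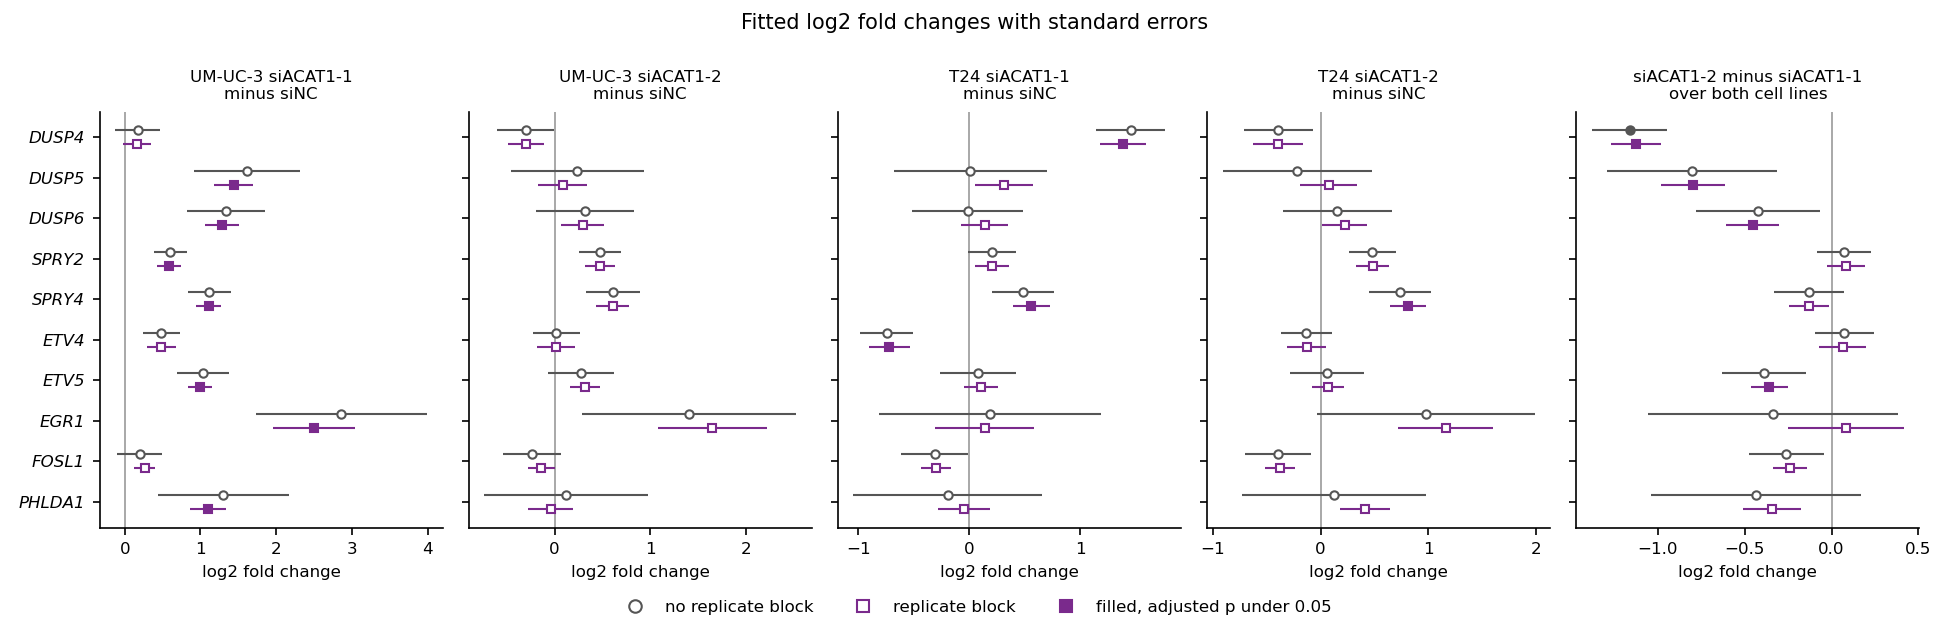
Fitted log2 fold change of each of the 10 genes with its standard error, for each siRNA against siNC in each line and for siACAT1-2 against siACAT1-1 over both lines, without (grey circles) and with (purple squares) the replicate block; filled markers passed an adjusted p of 0.05. The scale of the horizontal axis differs between panels, and 7 markers are filled for siACAT1-1 in UM-UC-3, all with the block.

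Averaged over both siRNAs and both lines, SPRY4 had the smallest adjusted p of the set in edgeR's fits. Its mean log2 change was 0.74 (standard error 0.18, adjusted p = 0.110 in edgeR) without and 0.77 (0.10, 1.0e-04) with the block, and DESeq2 gave 0.74 with an adjusted p of 0.0091. With the block 5 of 10 genes passed, all higher, against 12.4% of all genes in either direction and 5.95% among the higher, the others being SPRY2 (0.44, standard error 0.10, edgeR adjusted p = 0.0053), EGR1 (1.36, 0.32, 0.0078), ETV5 (0.37, 0.09, 0.0134) and DUSP6 (0.49, 0.13, 0.0221). Without the block none passed in edgeR's fit, where 0.223% of all genes did. In that fit 2 of the 10 were at an unadjusted p under 0.05, against 2201 of all 20144 genes. With DESeq2 1 of the 10 passed, against 315 of all genes. DUSP5 (0.48 with the block, edgeR adjusted p = 0.0583) and PHLDA1 (0.36, 0.120) were positive, and ETV4 (-0.09, 0.701) and FOSL1 (-0.14, 0.323) were the only negative values. Without the UM-UC-3 libraries numbered 3, 3 genes passed with the block, DUSP6 (adjusted p = 0.119 in edgeR) and ETV5 (0.0850) being lost, and 3 also passed without the UM-UC-3 siNC library numbered 3 or the T24 siNC library numbered 1. EGR1 was lost without the UM-UC-3 siNC library numbered 1 (edgeR adjusted p = 0.0561) and had 0.91 without the UM-UC-3 siACAT1-1 library numbered 1, and DUSP6 was lost without the T24 siNC library numbered 3.

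Library by library, 12 siACAT1 libraries could be set against the siNC library of their own line and number. SPRY4 was higher in 12 of 12 of these pairs, by 0.16 to 1.39 on the log2 scale with a median of 0.81, as were 1.62% of all genes tested, and no other gene of the set was. SPRY2 and EGR1 were higher in 11 of 12, the exceptions being both T24 with siACAT1-1, number 2 for SPRY2 (-0.08) and number 3 for EGR1 (-0.30). DUSP6 and ETV5 were higher in 9, DUSP5 in 8, PHLDA1 in 7, DUSP4 in 6, ETV4 in 5 and FOSL1 in 4 of 12. In UM-UC-3 cells with siACAT1-1, 9 of 10 genes were higher in all 3 numbers, against 19.5% of all genes, and the exception was DUSP4. With siACAT1-2 there were 3 such genes in each line, SPRY2, SPRY4 and EGR1, against 17.1% of all genes for UM-UC-3 and 23.4% for T24, and with siACAT1-1 in T24 cells there were 2, DUSP4 and SPRY4, against 23.6%. ETV4 and FOSL1 were lower in all 3 numbers with each siRNA in T24 cells (23.3% of all genes for siACAT1-1 and 20.1% for siACAT1-2), as was DUSP4 with siACAT1-2 in UM-UC-3 (18.0%). The share of all genes lower with both siRNAs at once was not counted. The pairs of a line share their 3 siNC libraries, so the pairs are not independent of each other.

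**Figure D3:**
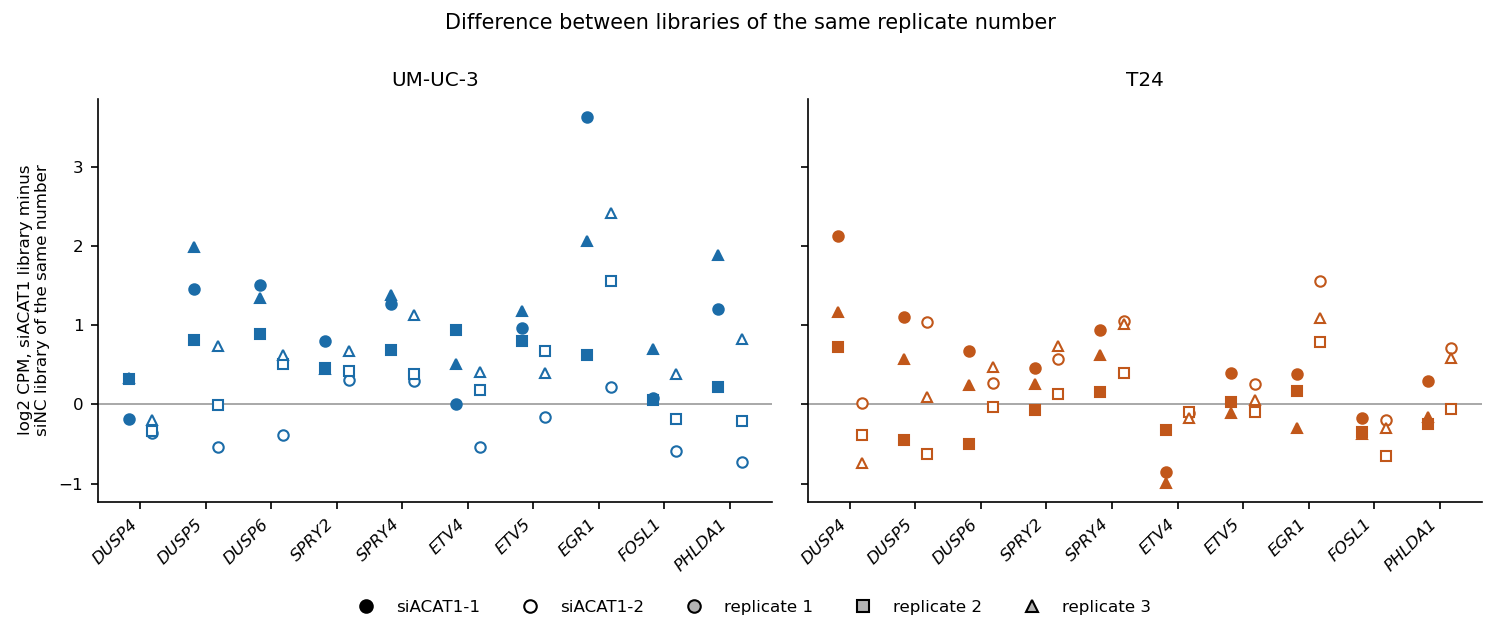
Difference in log2 CPM between each siACAT1 library and the siNC library of the same line and number, for siACAT1-1 (filled) and siACAT1-2 (open); the marker shape gives the replicate number and 0 is no difference. All 12 points of SPRY4 lie above 0, between 0.16 and 1.39, while DUSP4 in T24 is above 0 for all 3 siACAT1-1 points and ETV4 in T24 is below 0 for all 6.

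The siRNAs differed in DUSP4. Over both lines DUSP4 was lower with siACAT1-2 than with siACAT1-1, with a log2 difference of -1.16 (siACAT1-2 minus siACAT1-1, standard error 0.22, adjusted p = 0.0100 in edgeR; with the block -1.12, 0.14, 2.3e-05), the only gene of the 10 that passed without the block, where 2.56% of all genes did, 1.38% being lower. In every one of the 18 fits that left out 1 library it passed, but without all 3 UM-UC-3 libraries numbered 3 it had -1.15 with an adjusted p of 0.0635 in edgeR's fit. Against siNC, without the block, DUSP4 had 1.46 with siACAT1-1 and -0.39 with siACAT1-2 in T24 cells. In UM-UC-3 cells the gap was narrower, at 0.17 and -0.30, and whether it differed between the lines was not tested. With the block 4 of 10 genes passed, all lower with siACAT1-2, against 20.6% of all genes and 10.2% among the lower, and the others were DUSP5 (-0.80, standard error 0.18, edgeR adjusted p = 0.0040), ETV5 (-0.36, 0.11, 0.0220) and DUSP6 (-0.45, 0.15, 0.0396). Leaving out a single library, UM-UC-3 siACAT1-1 number 3 or siACAT1-2 number 1, or T24 siACAT1-1 number 1 or siACAT1-2 number 2, lowered that count to 2. SPRY2 and SPRY4 had -0.13 to 0.08 in both fits (edgeR adjusted p between 0.47 and 0.89).

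Whether the knockdown acted differently in the lines was tested as the difference of the log2 fold changes, UM-UC-3 minus T24. None of the 10 genes passed for the mean of both siRNAs in edgeR's fits without or with the block, where 0.0% and 0.104% of all genes passed. With DESeq2 0 of the 10 and 1 of all genes passed. An unadjusted p under 0.05 in edgeR's fits was reached by 1 and 6 of the 10, against 517 and 1905 of all 20144 genes. ETV4 was the single gene of the 10 with an unadjusted p below 0.05 in the unblocked fit, at 0.69, and it had 0.67 with the block (edgeR adjusted p = 1.00 and 0.316), while EGR1 had the largest difference, 1.55 and 1.42 (1.00 and 0.489). For siACAT1-1 alone none of the 10 passed either, without the block or with it, where 0.0% and 0.427% of all genes passed. In these edgeR fits 2 and 9 of the 10 had an unadjusted p under 0.05, against 696 and 2697 of all genes. In the blocked fit ETV4 had 1.20 (standard error 0.27, edgeR adjusted p = 0.0501) and DUSP4 -1.22 (0.28, 0.0546). For siACAT1-2 alone 0.0% and 0.129% of all genes passed. No gene of the 10 reached an unadjusted p of 0.05 in either fit with edgeR, against 486 and 1647 of all genes. The contrasts for a single siRNA were added after the data were seen. The calls made in UM-UC-3 and not in T24 cells are thus not shown to differ between the lines.

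Part of the spread of these genes followed the replicate number, with a median share in UM-UC-3 cells (39.0%) close to that over all genes (38.4%). Tested over the 3 numbers with edgeR's quasi-likelihood test, 6 of 10 genes differed between the numbers in UM-UC-3 cells, against 24.6% of all genes, and 8 of 10 in T24 cells, against 43.9%. The range between the numbers was largest for EGR1 in T24 (3.45 on the log2 scale, adjusted p = 1.33e-05), followed by PHLDA1 in T24 (2.99, adjusted p = 1.65e-08). In UM-UC-3 cells it was largest for DUSP5 (1.68, adjusted p = 2.38e-04), then EGR1 (1.59, adjusted p = 0.0583) and DUSP6 (1.42, adjusted p = 3.26e-04). Among 30 combinations of a gene and a group, the T24 library numbered 2 was the highest in 20 and that numbered 1 the lowest in 21, while in UM-UC-3 cells number 3 was the highest in 14 and number 2 the lowest in 16. These counts were not made over all genes, so they are not shown to be particular to the set. The combinations of a line share its libraries and are not independent. The replicate number held a median of 61.6% of the sum of squares of the 10 genes in T24 and 39.0% in UM-UC-3 cells, and the siRNA 28.1% and 44.8%, beside medians over all genes of 44.4% and 38.4% for the number and 25.2% and 25.3% for the siRNA. PHLDA1 in T24 had the highest share of the number (95.95%, and 2.53% for the siRNA), and SPRY4 in UM-UC-3 the highest share of the siRNA (83.7%, and 1.03% for the number). The number held more than the siRNA for 4 of 10 genes in UM-UC-3 and 6 of 10 in T24 cells, a count not made over all genes. What a number stands for, beyond a repeat of the experiment, is not given in the sources used here.

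**Figure D4:**
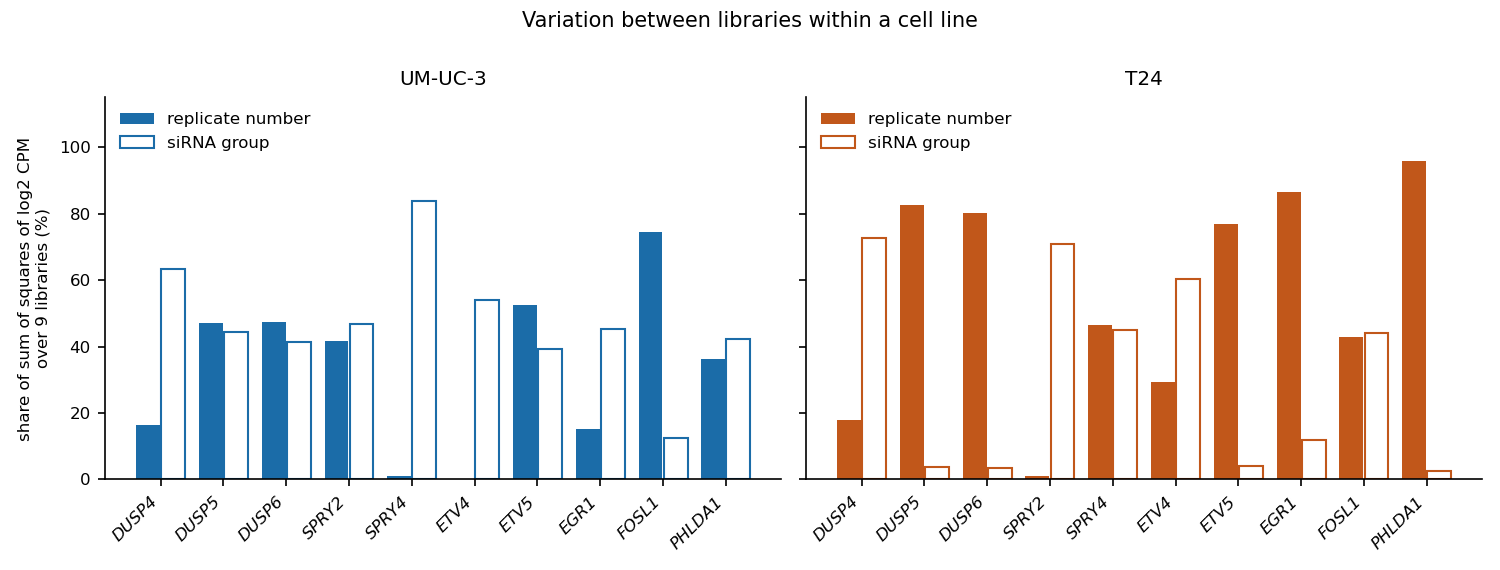
Share of the sum of squares of log2 CPM, in percent over the 9 libraries of a line, held by the replicate number (filled bars) and by the siRNA group (open bars) for each of the 10 genes. In T24 the filled bar of PHLDA1 reaches 95.95% and that of EGR1 86.6%, while in UM-UC-3 the open bar of SPRY4 reaches 83.7%.

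Correlations among the genes were uneven. Over the 18 libraries, centred within each line, the gene closest to DUSP6 was the antisense gene that overlaps it (Pearson r = 0.996), followed by INTS6 (0.950), DUSP5 (0.942), the stress gene GADD45A (0.941) and R3HCC1L (0.937), out of 20143 genes. Of the other members PHLDA1 (0.832), ETV5 (0.821) and SPRY4 (0.728) were closest to DUSP6, and FOSL1 (-0.01), ETV4 (0.13) and DUSP4 (-0.16) were farthest. For EGR1 the 5 closest genes were KBTBD8 (0.891), RP11-80H18.3 (0.874), GTF2E1 (0.863), PSG4 (0.861) and RPP14 (0.859), and SPRY4 (0.737) was the closest member. The median r of the 45 pairs of members over the 9 libraries of a line was 0.502 (range -0.33 to 0.98) for UM-UC-3, and for T24 it was 0.289 (-0.599 to 0.916). No such median was taken over pairs of all genes, so these values are not shown to be particular to the set. These values describe libraries that share replicate numbers and depth.

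Around these 10 genes, a list of 78 other genes of the pathway was counted by role, of which 75 were tested (EPGN and EGR3 had too few counts, and HGF was not analysed here). Without the block none of them passed in any of the 4 comparisons with siNC in edgeR's fit, nor for their mean. With the block 12 passed for siACAT1-1 in UM-UC-3, all higher and 8 of them among 22 tested target genes, 3 for siACAT1-2 in UM-UC-3, 12 for siACAT1-1 in T24 (7 higher and 5 lower) and 6 for siACAT1-2 in T24 (5 higher and 1 lower), again in edgeR's fit. These were 16%, 4%, 16% and 8% of the list, against 3.06%, 1.36%, 13.9% and 8.48% of all genes. For the mean effect 15 of 75 (20%) passed with the block (11 higher, 4 lower), against 12.4% of all genes, and the median of the 75 was 0.10, beside 0.00 over all genes. The lower genes were HRAS, the cyclin gene CCND1 and the receptors EGFR and ERBB3. The genes with the largest changes with the block were FOSB, a FOS family factor (1.69, edgeR adjusted p = 0.0129, siACAT1-1 in UM-UC-3), the growth factor gene FGF1 (-1.61, 0.0065, siACAT1-1 in T24), ATF3, a stress-induced factor (1.61, 0.0343, siACAT1-1 in UM-UC-3), the pseudokinase gene TRIB1 (1.49, 4.5e-04, siACAT1-1 in T24) and MAFF, a small MAF factor (1.43, 0.0053, siACAT1-1 in UM-UC-3). PLAUR, the urokinase receptor gene, which is among the 75 and was picked out once the values were known, had the smallest adjusted p for the mean effect (0.72 with the block, edgeR adjusted p = 1.45e-05; 0.68 and 0.129 without).

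Between the siRNAs the listed genes were compared as siACAT1-2 minus siACAT1-1 over both lines. In that contrast 5 of 75 listed genes passed without the block (6.67%, against 2.56% of all genes) and 25 with it (33.3%, against 20.6%), and those without it included the growth factor gene TGFA (log2 difference -1.10, standard error 0.28, edgeR adjusted p = 0.0463), the RAS GTPase activator NF1 (-0.64, 0.14, 0.0268) and the receptor genes MET (-0.48, 0.12, 0.0355) and ERBB2 (0.46, 0.10, 0.0203). HRAS, the mutant gene of T24 cells, had a log2 difference of 0.33 (edgeR adjusted p = 0.317; with the block 0.32, 0.0287) and NRAS 0.26 (0.370; with the block 0.27, 0.0890). For the mean knockdown effect HRAS had -0.27 (edgeR adjusted p = 0.496; with the block 0.0430) and NRAS -0.19 (0.616; with the block 0.235). HRAS was at 87.8 to 135 RPKM in T24 and 44.1 to 51.1 RPKM in UM-UC-3 siNC libraries.

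Between the siNC groups of the lines 34 of the 75 listed genes passed in edgeR's fit, against 44.3% of all genes. The receptor gene FGFR2 was at 0.0568 to 0.117 RPKM in UM-UC-3 and at 0 counts in all 3 T24 libraries. AREG, the amphiregulin gene, was at 0.265 to 0.471 RPKM in UM-UC-3 and at 3.70, 77.2 and 6.88 RPKM in T24 libraries 1, 2 and 3 (log2 difference -6.24, edgeR adjusted p = 0.0012). FOSB (-4.94, adjusted p = 1.17e-05), the ephrin receptor gene EPHA4 (-3.79, adjusted p = 1.25e-04) and TGFA (-3.74, adjusted p = 1.62e-06) were also lower in UM-UC-3 cells in edgeR's fit.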

How the data were processed

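RNA of 18 libraries was sequenced after preparation with a stranded mRNA kit that adds molecular identifiers. The submitters' processing notes name Trimmomatic 0.36, STAR 2.5.3 and featureCounts (Subread 1.5.1) with GRCh38; the annotation release, the strand setting and the use of identifiers are not given in the sources used here. The authors deposited counts per gene and RPKM per gene. RPKM recomputed from the deposited counts, exon lengths and library totals matched.

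Counts were fitted with edgeR 4.0.16 (R 4.3.3) after TMM scaling and filterByExpr, with 6 group coefficients over 18 libraries and the quasi-likelihood test. Benjamini-Hochberg adjustment ran over 20144 genes, and an adjusted p under 0.05 was called. Library differences used log2 CPM with a prior count of 2. Alternatives were the replicate number within a line as a block, DESeq2 1.42.0, its size factors, no filter, each line alone, and libraries left out. The fits were also run on counts simulated from the blocked fit, which cannot show whether the block suits these data. Deviations from group means correlated at 0.115 to 0.576 (9 pairs) in UM-UC-3 and 0.356 to 0.686 in T24 between libraries of the same number and at -0.545 to 0.269 and -0.567 to 0.21 otherwise. The ranges were apart in T24 and overlapped in UM-UC-3, where the pairing by number is less clear. Centring within groups of 3 itself lowers the other correlations when those of the same number are positive. Replicate pairs differed beyond counting error (chi-square per degree of freedom 11.8 to 174). The members and lists were chosen with earlier results of these data known. Named pathway genes were HRAS, NRAS, listed genes past the threshold in a knockdown contrast (at most 10, by size) and the 5 with the largest difference between siNC groups; some results under this rule are not reported here. The p-values measure the spread between these libraries, and those of the blocked fits the spread left once the replicate number is taken out. Sequences came from RefSeq (GRCh38.p14).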

Additional observations from a re-analysis of the deposited data

Results flagged for a closer look

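ETV4 was flagged because its siACAT1-1 libraries lay on opposite sides of the siNC libraries in the lines. In UM-UC-3 cells all 3 siACAT1-1 libraries were above all 3 siNC libraries, as for 6.13% of all genes. In T24 cells all 3 were below, as for 6.9% of all genes. The UM-UC-3 change of 0.48 passed in neither fit (edgeR adjusted p = 0.946 without and 0.180 with the block). The T24 change passed only with the block (-0.72, edgeR adjusted p = 0.0130). The difference of the log2 fold changes, UM-UC-3 minus T24, was 1.23 (standard error 0.34), and it did not pass after adjustment over all genes (edgeR adjusted p = 1.00 without and 0.0501 with the replicate block). This contrast was added after the data were seen.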

How the results depend on the processing

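Counts of the 10 genes that passed depended above all on the replicate block. With it 7 passed for siACAT1-1 in UM-UC-3 and 3 for it in T24, 1 for siACAT1-2 in T24 cells, 5 for the mean effect and 4 between the siRNAs, and it changed no other knockdown count. Without a filter on low counts the corresponding numbers were 6, 1, 0, 2 and 2, with 1 for siACAT1-2 in UM-UC-3 cells and 1 for the difference between the lines. DESeq2, and separately the omission of the T24 libraries numbered 2, gave 1 for siACAT1-1 in T24 and 1 for the mean effect. Without the UM-UC-3 libraries numbered 3 the count between the siRNAs went from 1 to 0, and the blocked counts were 0 for siACAT1-1 in UM-UC-3, 3 for the mean effect, 2 between the siRNAs and 2 for siACAT1-2 in T24, the last also being 2 without the T24 libraries numbered 2. Leaving out 1 library at a time gave 0 to 1 for siACAT1-1 and 0 to 1 for siACAT1-2 in T24 and 0 to 1 for the mean effect. The blocked counts then ranged from 1 to 7 for siACAT1-1 in UM-UC-3, from 1 to 4 for siACAT1-1 and from 0 to 3 for siACAT1-2 in T24, from 3 to 7 for the mean effect and from 2 to 5 between the siRNAs.

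Some small differences changed sign. Between the siRNAs EGR1 was 0.083 with the block, and without the UM-UC-3 libraries numbered 3 SPRY2 was -0.021 and ETV4 -0.027, or with the block -0.0019 and -0.038, with EGR1 at -0.24. DUSP5 between the siNC groups was 0.32 with the block and 1.24 without the T24 libraries numbered 2. With 1 library left out, EGR1 for siACAT1-2 in T24 ranged from -0.077 to 2.44, ETV4 for the mean effect from -0.16 to 0.019 (with the block -0.17 to 0.051) and PHLDA1 from -0.0088 to 1.14. Between the siRNAs SPRY2 ranged from -0.018 to 0.21, ETV4 from -0.029 to 0.14 (with the block -0.037 to 0.17), EGR1 from -0.85 to 0.60 (with the block -0.31 to 0.73) and PHLDA1 from -0.98 to 0.26. DUSP5 between the siNC groups ranged from -0.50 to 1.23. The cause was not tested for any of these.

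Over all genes the count for siACAT1-1 in UM-UC-3 was 2 without and 617 with the block, 18 with DESeq2 and 167 without a filter. For siACAT1-1 in T24 these were 25, 2799, 393 and 463, for the mean effect 45, 2500, 315 and 383, and between the siRNAs 515, 4141, 1298 and 884.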
